A study of Mus musculus with 25 samples.

Results

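The genes described here are 10 genes used to define the dendritic cell lineage and its subsets: Zbtb46, Flt3, Batf3, Irf4, Irf8, Btla, Kit, Dpp4, Cd24a and Sirpa. They were chosen by symbol with earlier results of these data known, so counts among them beside all genes are descriptive. All 10 were found among the 24537 gene models of the deposited count table. RNA was sequenced from 25 libraries of 200 sorted cells each, taken from C57BL6 mice whose food held 10% fat (control diet, CD) or 45% fat (high fat diet, HFD). White adipose tissue, named eWAT in the titles, gave 4 populations with 2 libraries per diet in each. The Tim4+ cells were split into pop1 with low and pop2 with high MHCII. The Tim4- cells were split by CD11c, with pop3 negative for it and MHCII high, and pop4 positive for CD11c and MHCII. From blood came monocytes sorted on CD115 and Ly6C (Mono), with 6 CD and 3 HFD libraries. Collagenase was used on adipose tissue together with flavopiridol, a transcription inhibitor, and not on blood per the labels, so tissue, gate and handling cannot be told apart in comparisons with monocytes. Adipose control libraries are titled CD-CD with numbers 7 and 8, and adipose HFD libraries carry the numbers 2 and 3. Monocyte control libraries are titled CD with numbers 1 to 3 or CD-CD with numbers 6 to 8, and monocyte HFD libraries carry the numbers 1 to 3. The labels do not say what separates CD from CD-CD titles. The labels give no age, sex, diet duration or number of animals behind a library, so p-values may measure technical as well as animal spread. The gates name no dendritic cell marker other than CD11c and MHCII, and the question put to the data was whether the CD11c+ gate, pop4, carried dendritic cell genes.

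Dendritic cells carry antigen to lymph nodes and activate T cells there. Conventional dendritic cells arise from bone marrow precursors that depend on the receptor tyrosine kinase Flt3 and its ligand, and they express the transcription factor Zbtb46, which monocytes and most macrophages lack. The cDC1 subset depends on Irf8 and Batf3, carries high Cd24a and, in many tissues, Btla. The cDC2 subset depends on Irf4 and carries Sirpa, which macrophages and monocytes also express. Macrophages can express CD11c and MHCII too, so the sort alone does not separate the cell types in adipose tissue.

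Levels are CPM, read counts scaled to the TMM-adjusted library size, with unadjusted library totals of 3.75 to 9.34 M. On the unadjusted totals, 3 counts corresponded to 0.321 to 0.799 CPM depending on the library, which differs somewhat from the adjusted scale. Differences are log2 values of the edgeR quasi-likelihood fit with their standard error (SE), and a gene was called at an adjusted p below 0.05. The sort genes followed the gates. Itgax, which encodes CD11c, was at 180 to 192 CPM in the 4 pop4 libraries and at most 43.7 in pop3. Timd4, which encodes Tim4, was at 0 to 10.6 CPM in pop4 and 88.9 to 626 in pop1 and pop2. Summed genes of MHCII and costimulation were at 1900 to 2830 CPM in pop1 and 4720 to 7030 in the 3 populations sorted as MHCII+ or MHCII high. Counts in 1463 olfactory and vomeronasal receptor genes, which myeloid cells are not known to use, summed to 79.6 to 190 CPM in pop4, 194 to 659 in pop3, 388 to 686 in pop2, 245 to 644 in pop1 and 93.1 to 256 in Mono. This background was thus lower in every pop4 library than in every other adipose library, and its part in the results was tested with the log2 sum as a covariate. In bulk samples of sorted cells, fewer cells of a type and less RNA per cell cannot be told apart.

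In pop4, Cd24a and Dpp4 stood above all other adipose libraries, Flt3 did so in 3 of 4 libraries, and Irf8 was low. The share of all genes that separated pop4 in this way was not computed. Neither Cd24a nor Dpp4 was called against pop3 (adjusted p = 0.071 and 0.0958, edgeR). Against pop3, the CD11c- neighbour, Flt3 was called higher and Irf8 and Kit lower, 3 of 10 genes, where 6.57% of the 16961 genes tested were called (2.32% higher and 4.25% lower). Against pop2, Flt3, Batf3, Dpp4 and Cd24a were higher and Irf8 and Kit lower (background 21.2%, with 8.76% higher and 12.4% lower). Against pop1, Flt3, Batf3, Dpp4 and Cd24a were higher and Irf8 lower (background 16.1%, with 7.48% higher and 8.62% lower). The median log2 difference of the 10 genes was 0.38, 0.79 and 0.37 in these 3 comparisons, beside -0.17, -0.18 and -0.20 over all genes. The 3 comparisons share the pop4 libraries. With the receptor background as a covariate, Dpp4 was called higher against pop2 (6.48, SE 1.48, adjusted p = 0.0333) and pop1 (6.04, SE 1.34, adjusted p = 0.0203), and no other of the 10 genes was called in the 3 comparisons. The fitted differences of Flt3 were then 4.19 (SE 1.33), 4.86 (SE 1.63) and 4.88 (SE 1.48) against pop3, pop2 and pop1, those of Irf8 -2.13 (SE 0.64), -1.46 (SE 0.72) and -1.41 (SE 0.68), those of Batf3 against pop2 and pop1 1.39 (SE 0.67) and 1.89 (SE 0.60), and those of Cd24a 5.09 (SE 2.15) and 1.81 (SE 1.84). Since the background did not overlap between pop4 and the other adipose libraries, background and population cannot be fully told apart in this fit.

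**Figure D1:**
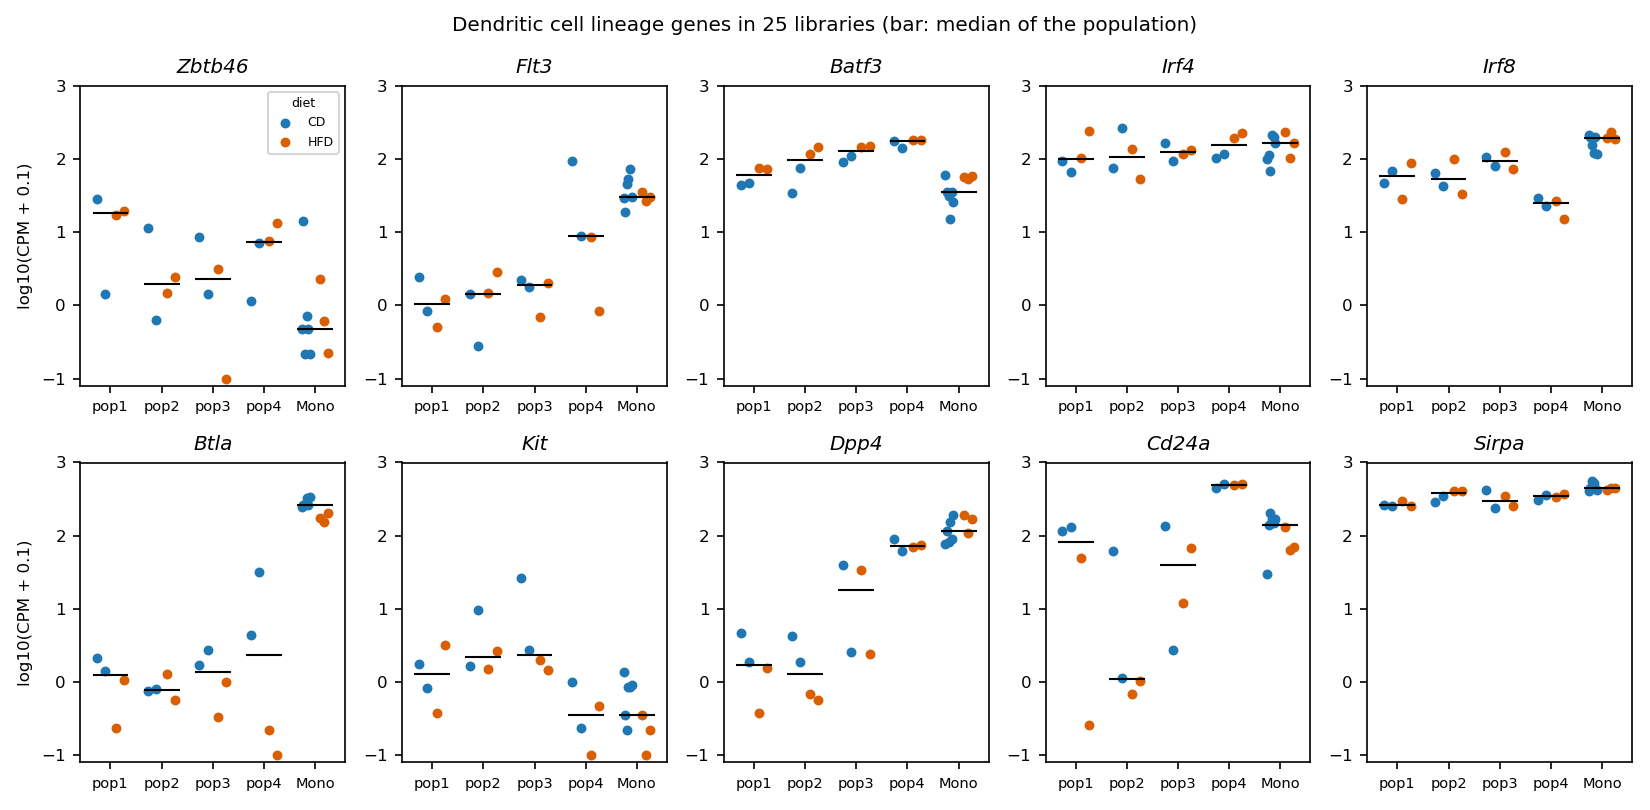
Level of each of the 10 genes as log10(CPM + 0.1) in all 25 libraries, with CD libraries in blue, HFD libraries in orange and the population median as a bar. The 4 pop4 libraries lay between 448 and 507 CPM for Cd24a and between 15.2 and 28.9 CPM for Irf8, while Flt3 in pop4 ranged from 0.741 to 93.1 CPM.

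Among the transcription factors, Irf8 showed the clearest difference, and it was lower in pop4. This interferon regulatory factor is needed for cDC1 and plasmacytoid dendritic cells and is also expressed in monocytes and macrophages. It was at 28.9 and 22.7 CPM in the CD and 26.7 and 15.2 CPM in the HFD libraries of pop4, and at 108, 79.7, 124 and 72.5 CPM in pop3. The pop4 and pop3 libraries did not overlap. The difference from pop3 was -2.05 (SE 0.39, adjusted p = 0.00334), and it was called without any single library of the 2 populations, but with the receptor background as a covariate it was -2.13 with an adjusted p of 0.185. The call was also lost in the control groups alone (-1.86, adjusted p = 0.0966) and in the HFD groups alone (-2.23, adjusted p = 0.0659). Irf8 was at 42.8 to 101 CPM in pop2 apart from 1 library at 33.8, and at 28.5 to 89.2 CPM in pop1, where the lowest library overlapped with pop4. It was lower in pop4 than in pop2 (-1.37, SE 0.39, adjusted p = 0.0184) and pop1 (-1.33, SE 0.39, adjusted p = 0.0241). The call against pop2 was lost without pop2 CD 7 (adjusted p = 0.0712), pop2 HFD 2 (-0.84, adjusted p = 0.115), pop4 CD 8 (0.0768) or pop4 HFD 3 (0.0751). That against pop1 was lost without pop1 CD 8 (adjusted p = 0.0773), pop1 HFD 3 (-0.79, 0.187), pop4 CD 7 (0.0512), pop4 CD 8 (0.0981) or pop4 HFD 3 (0.097).

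Batf3, the AP-1 family factor that works with Irf8 in cDC1, ran the other way. Its 4 pop4 libraries were at 178, 141, 184 and 181 CPM, pop3 was at 90.6, 110, 145 and 149, pop2 at 34, 75.9, 116 and 148, and pop1 at 44.9, 46.9, 76.3 and 72.8. All pop4 libraries lay above all pop1 libraries and overlapped at their lowest with the highest of pop3 and pop2. Batf3 was higher in pop4 than in pop1 (1.54, SE 0.36, adjusted p = 0.00559), a call made without any single library as well, and higher than in pop2 (1.0, SE 0.35, adjusted p = 0.0471). The pop1 call was lost in the control groups alone (1.8, adjusted p = 0.0622) and in the HFD groups alone (1.29, adjusted p = 0.115). The pop2 call was lost without pop2 CD 7 (0.81, adjusted p = 0.165), pop2 HFD 2 (0.096), pop2 HFD 3 (0.0711), pop4 CD 7 (0.0925), pop4 CD 8 (0.0766), pop4 HFD 2 (0.103) or pop4 HFD 3 (0.0805). Against pop3 the difference was 0.49 (SE 0.35, adjusted p = 0.385). The order of medians was thus pop4, pop3, pop2, pop1 and Mono, and no neighbours in that order differed past the threshold (adjusted p from 0.28 to 0.672).

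Irf4, the cDC2 factor, was at 104 and 119 CPM in the CD and 196 and 231 in the HFD libraries of pop4, and at 93.9 to 167 CPM in pop3. Ranges in pop2 (54.2 to 265 CPM) and pop1 (66.8 to 240) enclosed all pop4 values. The difference from pop3 was 0.27 (SE 0.42, adjusted p = 0.718). Zbtb46, the factor that marks conventional dendritic cells among myeloid cells, was low throughout. Its pop4 libraries were at 1.04, 6.99, 7.52 and 13.2 CPM, its pop3 libraries at 8.54, 1.32, 3.08 and 0, and its pop2 libraries at 0.524 to 11.3. The highest Zbtb46 values of the adipose libraries stood in pop1, a Tim4+ population, with 28.6, 17.4 and 19.7 CPM in 3 libraries and 1.32 in pop1 CD 8. The pop4 against pop3 difference of Zbtb46 was 1.22 (SE 1.51, adjusted p = 0.643), and with this SE the fit could not separate the populations.

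Promoters of 8 of the 10 genes were matched by symbol in a RefSeq table of the GRCm38.p6 build, the assembly behind mm10, and Cd24a and Sirpa had no entry. The 3 shown belong to genes with a call that was made without any single library: Batf3 and Dpp4, higher in pop4 than in pop1, and Irf8, lower in pop4 than in pop3. Each run is the 250 bases before the annotated start, 5′ to 3′ on the strand of the gene, with matches of the searched motifs in capitals.
Batf3: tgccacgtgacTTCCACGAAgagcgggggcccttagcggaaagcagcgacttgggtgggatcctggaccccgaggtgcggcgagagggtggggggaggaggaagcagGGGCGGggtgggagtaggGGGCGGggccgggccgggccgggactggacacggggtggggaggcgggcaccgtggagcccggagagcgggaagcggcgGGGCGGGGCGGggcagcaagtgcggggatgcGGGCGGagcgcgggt
Dpp4: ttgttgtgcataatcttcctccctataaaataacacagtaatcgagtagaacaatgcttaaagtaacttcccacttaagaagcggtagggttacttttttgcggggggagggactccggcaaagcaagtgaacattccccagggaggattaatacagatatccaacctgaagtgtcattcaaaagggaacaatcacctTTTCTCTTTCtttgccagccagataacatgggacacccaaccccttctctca
Irf8: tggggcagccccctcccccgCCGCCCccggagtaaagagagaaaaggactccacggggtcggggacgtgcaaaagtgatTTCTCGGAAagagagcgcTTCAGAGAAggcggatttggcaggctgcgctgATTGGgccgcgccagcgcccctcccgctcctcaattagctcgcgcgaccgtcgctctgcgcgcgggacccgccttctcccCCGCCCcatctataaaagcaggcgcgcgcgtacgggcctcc
Batf3 lies at chr1:191098164-191098413 on the plus strand, Dpp4 at chr2:62412232-62412481 on the minus strand and Irf8 at chr8:120736108-120736357 on the plus strand. The motifs, searched on both strands, were PU.1 GAGGAAGT, EICE (GGAA and GAAA, 2 bases apart, the composite of an Ets factor with Irf4 or Irf8), ISRE (GAAA and GAAA, 2 bases apart, bound by interferon regulatory factors), GAS TTCNNNGAA (bound by STAT factors), AP-1 TGANTCA, the GC box GGGCGG and the CCAAT box CCAAT, and among 32851 promoters of the same length they were present in 2.44%, 2.3%, 2.98%, 7.02%, 6.75%, 32.7% and 33.8%. EICE and ISRE can share bases. Irf8 held 2 GAS matches, TTCTCGGAA at 171 to 163 and TTCAGAGAA at 153 to 145 bases before the start, beside 2 GC boxes and a CCAAT box on the other strand (ATTGG). Batf3 held a GAS match, TTCCACGAA at 239 to 231 bases, and 5 GC boxes, of which 2 overlap. Dpp4 held an ISRE match on the other strand, TTTCTCTTTC at 52 to 43 bases, and no GC box. The window of Flt3 held none of the 7 motifs. A match is a description of the letters and was not tested as a site.

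Of the 2 growth factor receptors, Flt3, which binds Flt3 ligand on dendritic cell precursors and mature conventional dendritic cells, was uneven within pop4. It was at 93.1 and 8.74 CPM in the CD and 8.62 and 0.741 CPM in the HFD libraries. In the 12 other adipose libraries it ranged from 0.175 to 2.8 CPM, so 3 of the 4 pop4 libraries lay above all of them and pop4 HFD 3 lay within their range. Flt3 was higher in pop4 than in pop3 (3.30, SE 0.90, adjusted p = 0.0321), pop2 (3.62, SE 0.93, adjusted p = 0.0107) and pop1 (3.8, SE 0.93, adjusted p = 0.00843). The pop3 call was lost without pop4 CD 7 (2.05, adjusted p = 0.157) or pop4 HFD 2 (1.99, 0.236), and also without pop3 CD 7 (0.0843), pop3 CD 8 (0.125), pop3 HFD 2 (0.126) or pop3 HFD 3 (0.0596). Without pop4 CD 7 the adjusted p of Flt3 was 0.0691 against pop2 and 0.065 against pop1, and without pop4 HFD 2 it was 0.102 and 0.0959. Flt3l, which encodes the ligand, was read at 9.53 to 45.1 CPM in pop4 and 3.59 to 33.3 CPM in pop3 (adjusted p = 0.664).

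Kit, the stem cell factor receptor of progenitors and mast cells, was near the limit of 3 counts in pop4, with 7, 1, 0 and 3 counts in the 4 libraries (0 to 0.914 CPM). In pop3 it was at 26.5, 2.64, 1.89 and 1.37 CPM and in pop2 at 1.55, 9.6, 1.39 and 2.57 CPM, so that no pop4 library reached the lowest pop3 or pop2 library. The calls (adjusted p = 0.0473 against pop3 and 0.0422 against pop2) rested on these few counts, and no fold is given. Leaving out any 1 of the 8 pop3 and pop4 libraries took the pop3 call above the threshold: without pop3 CD 7, which holds the highest Kit value, the adjusted p was 0.155, and without pop4 HFD 2 it was 0.18. The pop2 call was lost without pop2 CD 7 (0.0596), pop2 CD 8 (0.162), pop2 HFD 2 (0.0548), pop2 HFD 3 (0.0963), pop4 CD 7 (0.0552), pop4 CD 8 (0.15) or pop4 HFD 2 (0.148). Summed mast cell markers were at 0.247 to 1.70 CPM in pop4 and 1.37 to 4.38 in pop3, and their part in the Kit values was not tested. Kitl, which encodes the ligand of Kit, was at 162 to 201 CPM in pop4 and 235 to 456 in pop3 (adjusted p = 0.0715).

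Cd24a encodes a small glycosylphosphatidylinositol-anchored glycoprotein that is high on cDC1, granulocytes and immature B cells. It was at 448, 505, 495 and 507 CPM in pop4, above every other library of the series. Pop3 was at 137, 2.64, 11.9 and 67.7 CPM, pop2 at 61.6, 1.05, 0.595 and 0.934, and pop1 at 114, 132, 49 and 0.162, so the gene was steady in pop4 and very uneven elsewhere in the tissue. Cd24a was higher in pop4 than in pop2 (6.64, SE 1.32, adjusted p = 0.00184) without any single library as well, and higher than in pop1 (3.15, SE 1.07, adjusted p = 0.0493). The pop2 call was lost in the control groups alone (3.93, SE 1.58, adjusted p = 0.219). It rested on 6, 3 and 4 counts in pop2 CD 8, HFD 2 and HFD 3. The pop1 call was lost without pop1 CD 7 (0.162), pop1 CD 8 (0.13), pop1 HFD 3 (0.113), pop4 CD 7 (0.0776), pop4 CD 8 (0.104), pop4 HFD 2 (0.0955) or pop4 HFD 3 (0.0793). Against pop3 the difference of 3.21 (SE 1.07) missed the threshold (adjusted p = 0.071), although the libraries did not overlap, and it passed without pop3 CD 7 (5.58, adjusted p = 0.0275). Summed B cell markers were at 4.57, 15.6, 117 and 73 CPM in the 4 pop4 libraries and 57 to 104 in pop3. Cd79a was at 0.131, 0.135, 16.8 and 11.6 CPM in pop4. Summed neutrophil markers were at 6.42 to 26 CPM in pop4 and 63.5 to 265 in pop3. The part of these cells in the Cd24a values was not tested.

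Dpp4, the peptidase CD26 that is found on cDC1, T cells and stromal progenitors, was also steady in pop4, at 91, 61.7, 70.8 and 73.6 CPM. Pop3 split into 2 libraries at 39.1 and 34 CPM (CD 7 and HFD 2) and 2 at 2.46 and 2.28, while pop2 and pop1 did not exceed 4.56. All pop4 libraries were thus above all other adipose libraries. Dpp4 was higher in pop4 than in pop2 (5.86, SE 0.88, adjusted p = 0.000126) and pop1 (5.49, SE 0.85, adjusted p = 0.000158), and both calls were made without any single library. It was also higher in pop3 than in pop2 (3.93, SE 0.83, adjusted p = 0.0205, background 1.03%) and pop1 (3.55, SE 0.79, adjusted p = 0.0252, background 1.59%), the only calls among the 10 genes between those 3 populations (pop2 against pop1 had 0 of 10, background 0.466%, with 2 at an unadjusted p under 0.05, as had 9.81% of all genes). The pop2 call was lost without pop3 CD 7 (2.40, adjusted p = 0.15), pop3 HFD 2 (2.45, 0.142), pop2 CD 7 (0.0521), pop2 CD 8 (0.0909) or pop2 HFD 3 (0.0819), and the pop1 call without pop3 CD 7 (2.02, 0.215), pop3 HFD 2 (2.07, 0.207), pop1 CD 7 (0.0654), pop1 CD 8 (0.105) or pop1 HFD 2 (0.102). Against pop3 it missed the threshold (1.93, SE 0.71, adjusted p = 0.0958), and it passed without pop3 CD 7 (3.49, 0.0159) or pop3 HFD 2 (3.43, 0.0192). Summed T cell markers were higher in every pop4 library (252 to 421 CPM) than in pop3 (31.8 to 148), with Cd2 at 158 to 257 CPM and Cd3e at 0 to 0.392 in pop4. Summed stromal progenitor markers were at 153 to 375 CPM in pop4 and 172 to 1420 in pop3, with Pdgfra at 0.269 to 1.72 in pop4. The part of these cells in the Dpp4 values was not tested.

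Sirpa, the inhibitory receptor for CD47 on macrophages, monocytes and cDC2, was high in all populations. It was at 303, 357, 342 and 372 CPM in pop4, 242 to 418 in pop3, 286 to 411 in pop2 and 253 to 297 in pop1. The difference between pop4 and pop3 was 0.13 (SE 0.16, adjusted p = 0.657), with the smallest SE among the 10 genes. Btla, an inhibitory receptor of lymphocytes and of cDC1, was at 4.31 and 31.3 CPM in the CD libraries of pop4 (33 and 233 counts) and at 0.123 and 0 CPM in the HFD libraries (1 and 0 counts). Other adipose libraries held 0.138 to 2.64 CPM. Averaged over diets, Btla in pop4 differed from pop3 by 0.08 (SE 0.89, adjusted p = 0.969), and in the control groups alone it was higher in pop4 (3.06, SE 0.76, adjusted p = 0.0406). Its partner Tnfrsf14 was at 0 to 0.616 CPM in pop4.

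**Figure D2:**
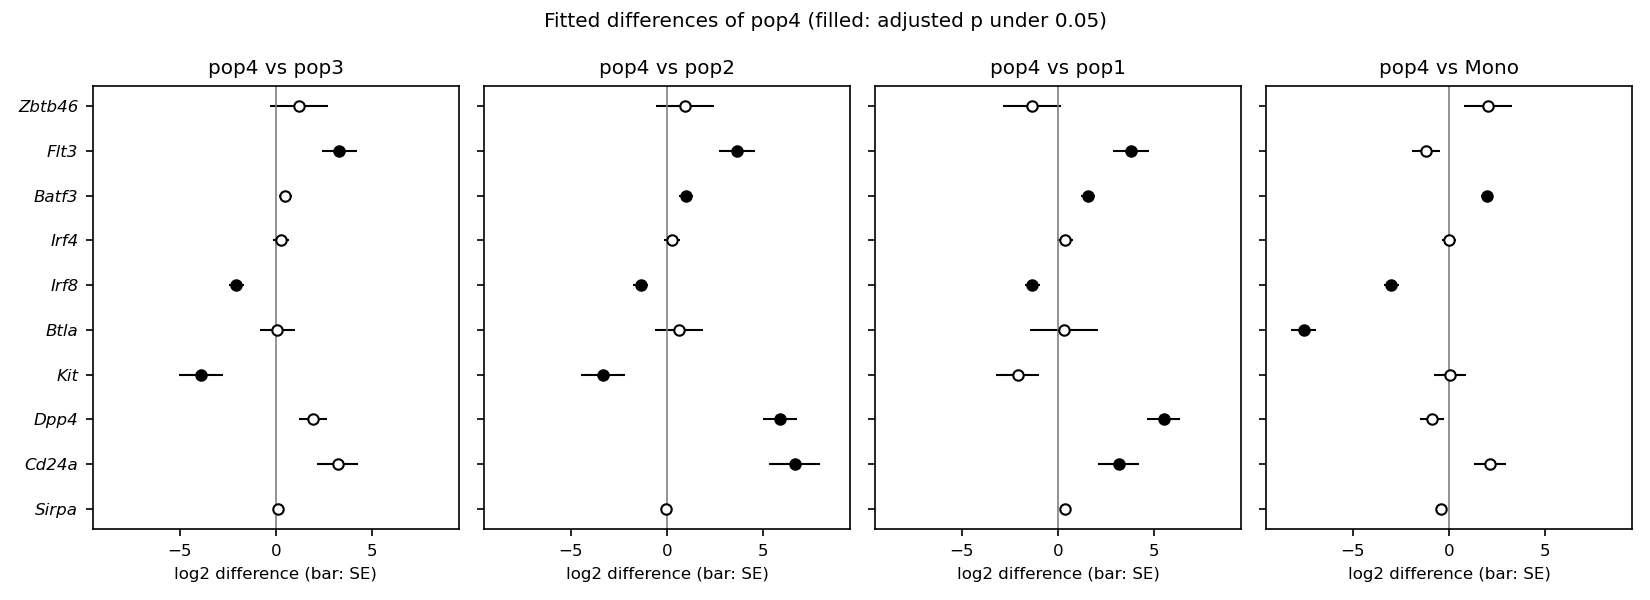
Fitted log2 difference of pop4 from pop3, pop2, pop1 and Mono for the 10 genes, with SE as bars and filled points for an adjusted p below 0.05. Irf8 lay below 0 in all 4 panels, from -1.33 against pop1 to -3.00 against Mono, and Batf3 lay above 0, from 0.49 against pop3 to 1.96 against Mono.

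Set side by side per kilobase of transcript, the level in pop4 was highest for Cd24a (270 ± 15.2 CPM per kb, SD, n = 4) and Batf3 (242 ± 28.7), whose libraries overlapped. Sirpa followed at 89.9 ± 7.83 and Irf4 at 34.1 ± 12.8 CPM per kb. Dpp4 was at 14.2 ± 2.34, Irf8 at 8.25 ± 2.12 and Flt3 at 7.66 ± 12.0 CPM per kb, where the SD of Flt3 exceeded its mean. Zbtb46 (2.80 ± 1.94) and Btla (2.77 ± 4.67) overlapped, and Kit was lowest at 0.0688 ± 0.0782 CPM per kb. In pop3 the order was led by Batf3 (175 ± 39.9) and Sirpa (82.3 ± 21.8), with Irf8 at 33.9 ± 8.57 and Cd24a at 30.3 ± 34.2 CPM per kb.

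Against Mono, Batf3 was higher in pop4 and Irf8 and Btla were lower, 3 of 10 genes, where 12.5% of all genes were called (7.16% higher and 5.3% lower). The median difference of the 10 genes was -0.21, beside -0.04 over all genes. Btla ranged from 155 to 340 CPM with a median of 261 in the 9 monocyte libraries, above the 31.3 CPM of the highest adipose library (-7.56, SE 0.67, adjusted p = 6.2e-08). Irf8 in monocytes ranged from 118 to 238 CPM with a median of 192, against at most 28.9 in pop4 (-3.00, SE 0.39, adjusted p = 1.3e-05). Batf3 ranged from 15.1 to 61.5 CPM with a median of 35.5, below the lowest pop4 library (1.96, SE 0.29, adjusted p = 7.9e-05). These 3 differences were called with the receptor background as a covariate too.

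Flt3 was at 18.9 to 74.2 CPM in monocytes with a median of 30.2, so 3 of the 4 pop4 libraries lay below all monocyte libraries and pop4 CD 7 above them (-1.21, SE 0.74, adjusted p = 0.352). Dpp4 was at 77.5 to 193 CPM with a median of 115 (-0.88, SE 0.62, adjusted p = 0.433). Cd24a was at 30.1 to 201 CPM with a median of 139, all below the lowest pop4 library, yet the difference of 2.12 (SE 0.83) had an adjusted p of 0.108. Sirpa was at 402 to 552 CPM, also without overlap (-0.40, SE 0.14, adjusted p = 0.0738). Without Mono CD 2, Sirpa was called lower in pop4 (adjusted p = 0.0407), and Zbtb46, at 14.1 CPM in that library and 0.117 to 2.18 in the other 8, was called higher in pop4 (3.38, adjusted p = 0.0449). Kit did not exceed 1.25 CPM in monocytes.

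The other adipose populations were set against monocytes in the same fit. Btla, Flt3, Dpp4 and Irf8 were lower in pop3, pop2 and pop1 than in Mono, and so were Sirpa in pop3 and pop1 and Cd24a in pop2 (5 of 10 lower in each, where 9.47% of all genes were called lower in pop3, 15.3% in pop2 and 13.7% in pop1). Batf3 and Kit were higher in pop3 and pop2, and Zbtb46 in pop1, where higher calls made up 15.7% of all genes in pop3, 24.7% in pop2 and 19.1% in pop1. The lower Irf8 and higher Batf3 of adipose cells against monocytes were thus also called in other populations: the differences of Irf8 were -0.96 (SE 0.34), -1.63 (SE 0.36) and -1.67 (SE 0.36) in pop3, pop2 and pop1, and those of Batf3 1.47 (SE 0.29) and 0.96 (SE 0.29) in pop3 and pop2. The call of Irf8 in pop3 was lost without any 1 library of the 2 groups other than Mono CD 6 or Mono CD 8 (adjusted p up to 0.151), and that of Zbtb46 in pop1 without any other than pop1 CD 8 or Mono CD 2 (1.62 and adjusted p = 0.421 without pop1 CD 7). Calls were also lost for Batf3 in pop2 without pop2 CD 8 (0.57, adjusted p = 0.185) or pop2 HFD 3 (0.0623), for Kit in pop2 without pop2 CD 8 (0.0703), and for Sirpa in pop3 without pop3 CD 8 (0.107) or pop3 HFD 3 (0.0669). Cd24a was called lower without pop3 CD 7 in pop3 (0.0477) and without pop1 HFD 2 in pop1 (0.0195), and Sirpa in pop2 without Mono CD 2 (0.0343) or Mono CD 6 (0.0348). With the receptor background as a covariate, Btla and Flt3 were called lower in pop3, pop2 and pop1 and Dpp4 in pop2 and pop1, and no other of these calls was made.

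Diet was tested with 2 libraries against 2 in each adipose population. Every adipose control library carries a CD-CD title, so in adipose tissue diet cannot be told apart from whatever sets that title series apart. In pop4, Btla was the 1 of 10 genes called (adjusted p = 0.00205, where 0.0354% of all genes were called), from 4.31 and 31.3 CPM on CD to 0.123 and 0 CPM on HFD. The HFD libraries held 1 count between them, so no fold is given. The call was lost without pop4 HFD 3 (adjusted p = 0.128) and in a fit of the pop4 libraries alone (adjusted p = 0.995). Flt3 in pop4 had an adjusted p of 0.552, although the CD libraries (93.1 and 8.74 CPM) lay above the HFD libraries (8.62 and 0.741 CPM). No member was called for diet in pop1, pop2, pop3 or Mono, where 0.436%, 4.19%, 0.0943% and 0.0059% of all genes were called, and at an unadjusted p under 0.05 the counts were 0, 2, 1 and 1 of 10, where 11.1%, 17%, 11% and 6.89% of all genes had such a p. The 2 in pop2 were Cd24a, at 61.6 and 1.05 CPM on CD and 0.595 and 0.934 on HFD (adjusted p = 0.13), and Batf3, at 34 and 75.9 CPM on CD and 116 and 148 on HFD (adjusted p = 0.182). DESeq2 called both (adjusted p = 0.0114 and 0.0218) and called none of the 10 in pop1, pop3 or Mono. In monocytes Btla was at 247 to 340 CPM on CD and 155 to 201 on HFD, without overlap, but the difference of -0.68 (SE 0.48) had an adjusted p of 0.93. The difference of diet effects between pop4 and pop3 was called for 0 of 10 (0.0177% of all genes), with Btla at an adjusted p of 0.278 in edgeR, 0.0497 in DESeq2 and 0.0428 without pop4 CD 7, and 1 of 10 at an unadjusted p under 0.05, as had 6.89% of all genes. The diet effect on Btla differed between pop4 and pop2 (adjusted p = 0.0134, where 0.643% of all genes were called) and between Mono and pop4 (0.0308, where 0.0118% were called).

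Other genes of the lineage were taken from lists, which were also chosen with earlier results of these data known. Their counts beside the shares of all genes are thus descriptive and were not tested as an excess. Beside each list count of pop4 against pop3, here and in the paragraphs below, stand 2.32% of all genes called higher and 4.25% lower. Of 16 tested genes of a conventional dendritic cell core, 4 were higher in pop4 than in pop3 and none lower, with a median of 2.12. Haao, an enzyme of tryptophan breakdown, was at 62, 43.3, 44.5 and 49.2 CPM in pop4 and 0 to 1.32 in pop3 (adjusted p = 0.0003). Amica1 was at 19.5 to 55.7 against 0.178 to 3.76 CPM (adjusted p = 0.0057), Ap1s3 at 4.96 to 19.1 against 0.114 to 0.756 (0.0349) and Bcl11a, a transcription factor of dendritic and B cells, at 6.05 to 58 against 0.911 to 22.5 CPM (0.0233). The same list had 8 genes called higher in pop4 and 1 lower with pop2 as the comparison, 9 and 2 with pop1, and 2 and 1 with Mono, where 8.76% and 12.4%, 7.48% and 8.62%, and 7.16% and 5.3% of all genes were called higher and lower. Haao, at 30.8 to 89.9 CPM, and Amica1, at 75.8 to 142 CPM, were read in monocytes as well. The summed core list overlapped between pop4 (533 to 912 CPM), pop3 (288 to 660), pop2 (282 to 700) and Mono (478 to 965). Summed cDC1 (569 to 649 against 474 to 681), cDC2 (1980 to 2540 against 1810 to 2240) and migratory genes (259 to 453 against 418 to 662) overlapped between pop4 and pop3. Summed plasmacytoid genes (114 to 164 against 533 to 691) and other transcription factors (2870 to 2930 against 2170 to 2580) did not.

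Of 11 cDC1 genes, 1 was higher in pop4 than in pop3 and none lower (median 0.12): Cadm1, a cell adhesion molecule, at 12.9, 44.7, 62.3 and 27.3 CPM against 0.89 to 7.93 (adjusted p = 0.0423). Xcr1, a chemokine receptor, was at 18.9, 2.56, 10.6 and 4.94 CPM in pop4 and 0.89 to 10.4 in pop3 (adjusted p = 0.185). Clec9a, a receptor for dead cells, was at 0.131, 9.95, 11.5 and 18.7 CPM against 0.118 to 1.89 (adjusted p = 0.0541), and was lowest in pop4 CD 7, the library with the highest Flt3. Of 10 cDC2 genes, 2 were higher and 1 lower (median -0.27). The chemokine Ccl17 was at 129, 81, 49.8 and 69.7 CPM against 0 to 0.473 (adjusted p = 0.00416), the leukotriene receptor gene Ltb4r1 at 36.6, 227, 195 and 176 against 0.378 to 15.7 (1.49e-05), and the lectin Clec10a lower at 72.9 to 164 against 283 to 374 CPM (0.00236). Cd209a, a lectin of cDC2, was at 433 to 626 CPM in pop4 and 300 to 535 in pop3 (adjusted p = 0.509).

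Of 12 genes of migratory dendritic cells, 1 was higher in pop4 than in pop3 (median 1.02), the chemokine Ccl22 at 22.7, 35.6, 44.6 and 0.371 CPM against 0 to 1.30 (adjusted p = 0.0244). Ccr7, the receptor that guides dendritic cells to lymph nodes, was at 41 and 28.3 CPM in pop4 CD 7 and HFD 2 and at 0.135 and 0 in CD 8 and HFD 3, where pop3 held 0 to 3.20 (adjusted p = 0.123). Of 11 tested genes of plasmacytoid dendritic cells, 3 were lower in pop4 than in pop3 and none higher (median -2.35). Tcf4, the factor that specifies plasmacytoid dendritic cells, was at 73.8, 79.2, 74.8 and 105 CPM against 469 ± 39.7 (mean ± SD, n = 4) in pop3 (-2.50, SE 0.17, adjusted p = 4.71e-09). Siglech, a lectin of plasmacytoid cells and of some macrophages, was at 0 to 0.261 CPM against 21.6 to 61.2 (adjusted p = 0.00753), and Cox6a2 was at 0 in all 4 pop4 libraries and 0 to 17.5 CPM in pop3 (adjusted p = 0.031). In the Tim4+ populations Tcf4 was at 489 to 746 CPM and Siglech at 25.4 to 381 CPM.

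Of 13 other transcription factors of dendritic cell development, 2 were higher and 1 lower in pop4 than in pop3 (median 0.46). Runx3 was at 58.5, 26.2, 47.9 and 56.5 CPM against 1.89 to 9.96 (3.54, SE 0.61, adjusted p = 0.00115), Spi1, which encodes PU.1, at 136 to 294 against 54.4 to 132 (1.12, SE 0.27, adjusted p = 0.0159), and Zeb2 at 564 to 656 against 609 to 1200 CPM (-0.53, SE 0.16, adjusted p = 0.0482). Of 14 ligands and partners of the 10 genes, 1 was higher, the phosphatase gene Ptprc that encodes CD45 (0.45, SE 0.12, adjusted p = 0.0302; median 0.33). Of 13 genes of MHCII and costimulation, 2 were higher (median 0.30): H2-DMb2 at 29.5 to 82.1 against 2.49 to 5.56 CPM (adjusted p = 0.014) and H2-Oa at 5.75 to 65.6 against 0.189 to 0.89 CPM (0.0444), which form the peptide exchange chaperone H2-DM and its inhibitor H2-O with their partner chains. Near-identical class II genes can share reads, so these 2 are uncertain. Among 6 sort genes, Itgax was higher (adjusted p = 0.0271) and Csf1r lower (-0.76, SE 0.12, adjusted p = 0.000438; median of the list -0.55).

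Of 15 macrophage core genes, 4 were lower in pop4 than in pop3 and none higher (median -1.14). Among them were Maf at 106 to 186 against 746 to 1040 CPM (-2.53, SE 0.28, adjusted p = 7.33e-06), Abca1 at 50.3 to 202 against 312 to 743 (-2.22, adjusted p = 0.00104) and Tlr7 at 18.4 to 83.1 against 140 to 296 (-1.97, adjusted p = 0.00262). Maf is a transcription factor of macrophages, Abca1 a cholesterol exporter and Tlr7 a receptor for single-stranded RNA. The summed list ranged from 2660 to 4320 CPM in pop4, from 4520 to 7610 in pop3 and from 3450 to 4500 in Mono. Against Mono, 6 of the 15 genes were higher in pop4 and 4 lower (median 0.42). Of all genes, 7.16% were called higher and 5.3% lower in that comparison. Mertk (7.64 to 62.1 CPM in pop4) and Fcgr1, which encodes CD64 (26.1 to 78.6), are markers used to tell macrophages from dendritic cells, and neither was called against pop3 (adjusted p = 0.379 and 0.097).

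**Figure D3:**
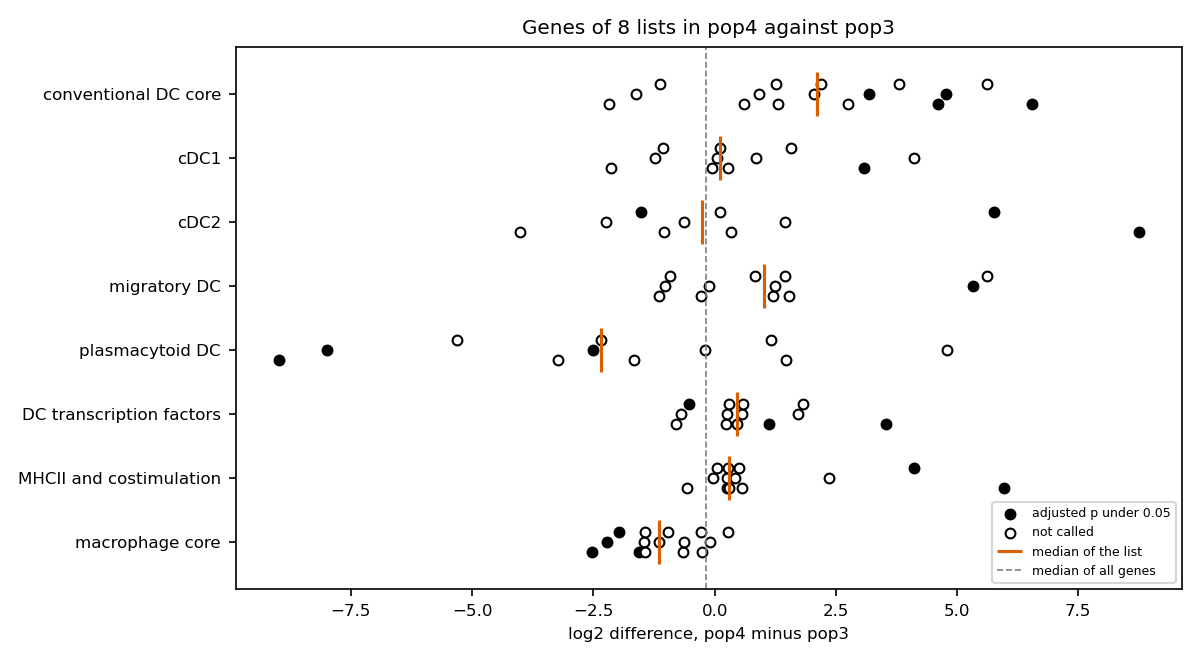
Fitted log2 difference of pop4 from pop3 for every tested gene of 8 lists, with filled points for an adjusted p below 0.05, orange lines at list medians and a dashed line at the median of all genes (-0.17). The conventional core list had the highest median (2.12) and the plasmacytoid list the lowest (-2.35).

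Markers of other cells were compared too, and their part in the results on the 10 genes was not tested beyond the values given. Of 6 NK cell genes, 1 was higher than in pop3, Klrk1 at 192 to 312 against 3.59 to 31.2 CPM (adjusted p = 3.03e-05; list median -1.15), while Ncr1 was at 0 to 0.247 CPM in pop4. Of 10 T cell genes, Cd2 was higher (158 to 257 against 2.37 to 25.4 CPM, adjusted p = 0.0459) and Cd28 lower (0.0108; median -0.92), and the summed list was at 252 to 421 CPM in pop4 and 31.8 to 148 in pop3. Of 10 monocyte genes, Chil3 was higher and F13a1 lower (median -0.11). Red cell markers had 1 of 8 lower, Hbb-bs at 0.392 to 1.88 against 1.06 to 128 CPM (adjusted p = 0.0301; median -4.25), neutrophil markers 2 of 5 lower, Mmp9 and Csf3r (median -4.06), and mesothelial markers 1 of 5 lower, Msln (median 0.45). None was called among 7 B cell (median -1.55), 4 mast cell (-1.91), 11 stromal progenitor (-1.37), 8 adipocyte (-1.1), 8 endothelial (-3.02) and 10 proliferation genes (0.70). Summed proliferation genes were at 877 to 1330 CPM in pop4, 340 to 955 in pop3 and at most 124 CPM in pop1, pop2 and Mono. Of all genes, 8.76% were called higher and 12.4% lower in pop4 against pop2, and 7.48% higher and 8.62% lower against pop1. Against pop2 and pop1, 10 of 10 proliferation genes were higher in pop4 (medians 4.84 and 6.58). Red cell genes had 6 of 8 lower against pop2 and 2 of 8 against pop1, and macrophage core genes had 9 of 15 lower and 1 higher against pop2 and 6 lower and 1 higher against pop1. T cell genes had 3 of 10 higher and 2 lower against pop2 and 2 higher and 1 lower against pop1, and monocyte genes had 3 of 10 higher and 1 lower against each. Neutrophil genes had 2 of 5 lower and NK cell genes 1 of 6 higher in both comparisons, and the B cell, mast cell, stromal progenitor, adipocyte, endothelial and mesothelial lists had at most 1 gene called in a direction.

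The 10 genes did not rise and fall as 1 block across the 16 adipose libraries. On log2(CPM + 1), with libraries that share populations and background, the highest correlation among pairs was between Dpp4 and Cd24a (r = 0.72), followed by Flt3 and Dpp4 (0.57) and Irf8 and Kit (0.54), and the lowest was between Irf8 and Cd24a (-0.52). Zbtb46 was not above 0.25 with any of the others. Among 10907 other genes with at least 5 CPM on average, those most like Dpp4 over the 16 libraries were Gm9733 (r = 0.936), Smim5 (0.919) and Chek1 (0.912). The genes most like Cd24a were Hikeshi (0.885), Emc6 (0.882) and Bhlhe40 (0.881), and those most like Batf3 included Rab4b (0.889) and Asap2 (0.881). Flt3 was closest to Ccsap (0.858), Map3k6 (0.857) and Mcur1 (0.853), Irf4 to Hnrnpa2b1 (0.84), Tmem234 (0.79) and Rps6ka3 (0.785), and Sirpa to Prr3 (0.822), Pak2 (0.768) and Ppp4r1l-ps (0.747). Irf8 reached 0.804 with Zcchc14, 0.80 with Iqsec2 and 0.789 with Itgb5, and Zbtb46 reached 0.778 with Nkiras1 and 0.74 with Fgfbp3 and Trim12a. No gene of the dendritic cell lists was among these nearest genes.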

How the data were processed

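Each library was made from amplified cDNA of 200 sorted cells. The authors deposited raw read counts per gene model, aligned with STAR 2.5.3a to mm10 and counted with HOMER per the submitters' processing notes; strand, duplicates and multiply mapped reads are not given in the sources used here. No other unit was used. Counts were tested with edgeR 4.0.16 in R 4.3.3: TMM factors (0.893 to 1.15), filterByExpr by group (16961 genes, all 10 members among them), estimateDisp, robust glmQLFit and glmQLFTest on 10 group means of all 25 libraries, with 15 residual degrees of freedom, a common biological coefficient of variation of 0.749, Benjamini-Hochberg adjustment over all genes and a threshold of 0.05. Population contrasts weighted both diets equally. CPM used TMM-scaled library sizes. Reads carry no molecular identifiers, so the floor of 3 counts reflects counting error alone. No 2 libraries of a group held identical counts.

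All members were named in every comparison, and of each list up to 4 genes called in pop4 against pop3 with the greatest change, plus defining markers; 2 genes that this rule would name are not reported here. In comparisons without pop4 and for diet, members that were not called are given mainly as counts. The lists were conventional core, cDC1, cDC2, migratory and plasmacytoid dendritic cell genes, other transcription factors, partners, macrophage core, MHCII and costimulation, sort genes, monocyte, T cell, B cell, NK cell, neutrophil, mast cell, red cell, stromal progenitor, adipocyte, endothelial, mesothelial and proliferation genes. Members and lists were chosen with earlier results of these data known. Alternatives were DESeq2 1.42.0 (size factors and Wald test), upper-quartile factors, no filter, a receptor background covariate, fewer groups, a replicate block and leaving out libraries. The fit was tested on simulated counts for pop4 against pop3, with 50 changed genes of each size among 15774. It recovered 36% and 24% of true log2 changes of 2 and -2, and 80% and 82% of changes of 4 and -4, with 3 false calls. A difference that was not called is thus no evidence that there was none.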

Additional observations from a re-analysis of the deposited data

Results flagged for a closer look

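Levels of the 10 genes were examined in the 6 control monocyte libraries, the 1 group large enough for a test of single libraries. Of the 10 genes, 2 had a library far from the others. The nominal rate of the test is about 1 in 20, but the share over all genes was not computed. Whether 2 of 10 is more than among other genes is thus not known. Zbtb46 was at 14.1 CPM in Mono CD 2, and the next library was at 0.627 and the lowest at 0.117. Cd24a was at 30.1 CPM in Mono CD 1, and the next was at 139 and the highest at 201. Both flagged libraries carry CD and not CD-CD titles, and the test took the title series as 1 group.

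Diet effects were compared between populations for the 10 genes in 100 tests, and 2 were called, both for Btla. The difference of diet effects in pop4 minus that in pop2 was -8.11 (SE 1.46, adjusted p = 0.0134, edgeR), and that in Mono minus that in pop4 was 7.13 (SE 1.15, adjusted p = 0.0308, edgeR). Of all genes, 0.643% were called in the first of these comparisons and 0.0118% in the second. The share of all genes called over the whole set of comparisons is not given, so 2 of 100 cannot be set against it. Both Btla differences rest on the 1 count of the gene in the HFD libraries of pop4, so the sizes are fitted values and not folds. In the adipose populations diet and title series cannot be told apart.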

How the results depend on the processing

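No called value changed sign in any setting. Leaving out 1 library at a time gave, for pop4 against pop3, 379 to 827 genes called, 0 to 2 members higher and 1 lower; against pop2, 1580 to 3369 genes, 2 to 4 higher and 0 to 1 lower; against pop1, 1366 to 2205 genes, 2 to 4 higher and 0 to 1 lower; and against Mono, 1399 to 2061 genes, 1 to 2 higher and 2 to 3 lower. Diet calls ranged over 25 to 112 genes in pop1, 428 to 858 in pop2, 5 to 87 in pop3, 2 to 16 in pop4 (members 0 to 1) and 1 to 6 in Mono, and the difference of diet effects of pop4 and pop3 over 0 to 16 genes (members 0 to 1); no member was called for diet in pop1, pop2, pop3 or Mono in these settings. The receptor covariate gave 138 genes, 0 members higher and 0 lower against pop3; 207, 1 and 0 against pop2; 359, 1 and 0 against pop1; and 19 and 1 diet genes in pop1 and pop3. A fit of the groups compared gave 323, 0 and 1 against pop3; 1672, 2 and 0 against pop2; 1635, 2 and 0 against pop1; 2 and 4 members against Mono; and 0 diet genes in pop1, pop2, pop3, pop4, Mono and the difference, with 0 members in pop4. The DESeq2 Wald test gave 2524 genes against pop3 with 2 members higher, 5424 against pop2, 4272 against pop1, diet genes of 736, 1903 (2 members), 699, 131 and 140 in pop1, pop2, pop3, pop4 and Mono, and 147 (1 member) for the difference. Control groups alone gave 297 genes and 0 members lower against pop3, 473 and 0 against pop2, 459 with 2 higher and 0 lower against pop1, and 1091 against Mono. HFD groups alone gave 146, 0 and 0 against pop3; 2 and 1 members against pop2; 1162, 1 and 0 against pop1; and 925 genes against Mono. Without a filter, 1 member was lower against pop3 and against pop2, and pop1 had 36 diet genes. Diet genes in monocytes were 2 with upper-quartile factors and 0 with the CD titles alone. The cause was not tested, apart from fewer samples where groups or libraries were left out.

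With DESeq2 size factors, the all-gene median shifted by -0.13, -0.21 and -0.16 against pop3, pop2 and pop1; Batf3 against pop2 was then 0.78 (adjusted p = 0.108) and Cd24a against pop1 3.0 (0.0554).

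Deviations of same-titled libraries from their group means had r from -0.039 to 0.073 in 40 pairs. In groups of 2 libraries the deviations mirror each other, so many pairs repeat the same value and are not separate checks. Of 20 libraries, 8 were closest to their own number, and no chance rate was computed for that count. Whether same-titled libraries share animals was thus not decided. With the title number as a replicate block, pop4 against pop3 gave 554 genes, 0 members higher and 1 lower (Irf8), and the adjusted p of Flt3 was 0.0998. The block left 1 member lower against pop2 and 0 against pop1, 1227 genes against Mono and 0 diet genes in Mono.

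Kit, Btla and Zbtb46 are limited by depth, since several libraries held fewer than 3 counts. Depth also limits Dpp4, Cd24a and Flt3 in the populations set against pop4. Dpp4 held 2 counts in pop1 HFD 2 and in pop2 HFD 3. Cd24a held 1 count in pop1 HFD 3, and Flt3 held 1 count in pop2 CD 8 and 5 in pop3 HFD 2. The sizes given for these 3 genes are thus fitted values and not measured folds.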
